A study of Neurospora crassa with 24 samples.

Results

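The comparison described here set the 3 *Neurospora crassa* RNA-seq libraries labelled ∆*wc-1* and kept in light against the 3 wild-type libraries kept in light, 6 of the 24 libraries of the series. It was chosen by strain and light condition, and the main counts and genes are also given without library 1 labelled ∆*wc-1*, whose composition differed from that of the other libraries with this label. Conidia had been spread on nitrogen-poor crossing agar (SCM) plates and kept at 22°C under constant fluorescent light for an incubation of 7 days, and tissue was collected 1 day before fertilization, when the plates carry protoperithecia, the unfertilized female organs. The same strains kept in the dark, with 3 libraries each, gave the background for the effect of light. The 12 remaining libraries, of strains without *ve-1*, entered through the shared estimate of the spread, the scaling and the choice of genes tested. The labels and the study's methods state that tissue of biological replicates was pooled for RNA extraction. The methods also speak of independent biological replicates for RNA quantification in general. How the pools relate to the 3 libraries of a condition is not given in the sources used here. The p-values thus rest on a spread between libraries, estimated over all 24 of them, which may be technical. Estimated per condition, the coefficient of variation between libraries was 0.799 for the label in light and 0.562 for the wild type in light. It was 0.213 to 0.574 in the other conditions, so a shared estimate can understate the spread of this comparison.

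WC-1 is the blue-light photoreceptor of *N. crassa* and a transcription factor. It pairs with WC-2 to form the white collar complex, which binds light-regulated promoters, switches on genes for carotenoid pigments, photoreception and conidiation in light, and drives the clock gene *frq* also in the dark. The protein VVD, itself induced by the complex, binds it and damps the response. Mutants without WC-1 are blind to blue light and lack light-induced carotenoids in the mycelium.

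The targeted gene did not follow the label. *wc-1* (chromosome VII, 2767393 to 2773846, NC12 assembly) stood at 42.1, 7.12 and 41.2 CPM (counts relative to the library size after scaling) in wild-type libraries 1, 2 and 3, and at 12.7, 32.1 and 30.05 CPM in those labelled ∆*wc-1*. The groups overlapped, and the log2 fold change was -0.27 ± 0.74 (SE; adjusted p = 0.87). In the dark, the means were 21.8 CPM for the wild type and 59.9 CPM for the libraries labelled ∆*wc-1*. The sources used here do not say which part of *wc-1* the allele removes, and counts per gene cannot show it. For this reason the libraries are called by their label throughout, and each direction below is relative to that label.

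Library 1 labelled ∆*wc-1* stood apart. The 10 most abundant genes of each library, ranked within that library, held 26.7% of the counts of library 1. They held 7.31% and 6.91% in libraries 2 and 3, and 18.7% to 27.1% in the wild-type libraries in light. In the wild type in light they included *eas*, with 9.21%, 7.28% and 5.36% of the counts, against 0.0147% in library 1. Spearman's correlation over the 9412 genes tested was 0.793 and 0.808 between library 1 and the others with its label, 0.987 between libraries 2 and 3, and 0.919 to 0.951 among the wild-type libraries; genes are not independent replicates. Library totals ran from 30246878 counts in library 1 to 42697941 in the whole series. Of the genes counted more than 100 and at most 1000 times, 93.3% had an even count in library 1, against 80.3% to 90.2% in the wild-type light libraries and 62.2% and 63.9% in libraries 2 and 3. On both measures library 1 lay near the wild type, and libraries 2 and 3 lay apart from it. The 10-gene share did not come from the same genes throughout. A fit with this 10-gene share as a covariate, chosen after the data were seen, called 2087 genes in the comparison, against 992 without it. The share is taken from the counts under test and includes *eas* in the wild type in light, so it can carry part of the difference tested.

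**Figure D1:**
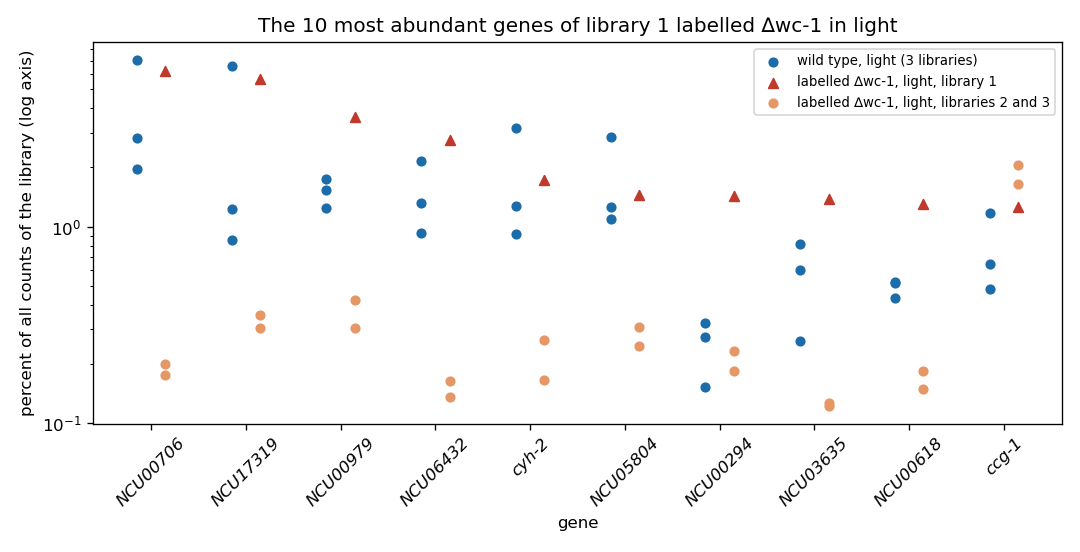
Percent of all counts of a library (log axis) held by each of the 10 most abundant genes of library 1 labelled ∆*wc-1* in light, with points for the 3 wild-type libraries in light and the 3 libraries labelled ∆*wc-1* in light. NCU00706 held 6.18% of library 1, 1.95% to 7.07% of the wild-type libraries and 0.176% and 0.200% of libraries 2 and 3.

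With all 3 libraries, 992 differentially expressed genes (DEGs, which had an adjusted p below 0.05 in edgeR's quasi-likelihood test and differed by more than 1 on the log2 scale) were found among 9412 genes, 10.5% of those tested: 543 were higher (5.77%) and 449 lower (4.77%) in the libraries labelled ∆*wc-1*. An unadjusted p below 0.05 was reached by 2522 genes. The libraries of both conditions did not overlap in 478 of the genes that rose and 433 of those that fell, and in 2160 of the 9412 genes tested (22.9%). In 31 of the genes that rose, all wild-type libraries were at 0, and in 6 of those that fell all libraries labelled ∆*wc-1* were at 0. The fold change fitted for such genes depends on the prior count. The fit without wild-type library 1 called 351 genes that rose, and that without library 2 of the label called 253 that fell. A fit of the 6 light libraries alone called 138 DEGs, 56 higher and 82 lower.

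Without library 1, 1373 DEGs were found among 9506 genes (14.4%), with 735 higher (7.73%) and 638 lower (6.71%). Of the DEGs of the fit with 3 libraries, 398 of those that rose (73.3%, or 54.1% of the longer list) and 352 of those that fell (78.4%, or 55.2%) were called again in the same direction, and 0 in the opposite one. A further fit, chosen after the data were seen, kept library 1 as the sole one labelled ∆*wc-1*, on the assumption that a lone library varies like the others. It called 2752 of 9673 genes (28.5%), of which 1014 rose (10.5%) and 1738 fell (18%). All 3 fits shared 231 genes that rose and 244 that fell. Of the genes that rose and fell without library 1, 28 and 16 were called in the opposite direction with library 1 alone. The 3 fits use the same wild-type libraries, so their calls are not independent.

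**Figure D2:**
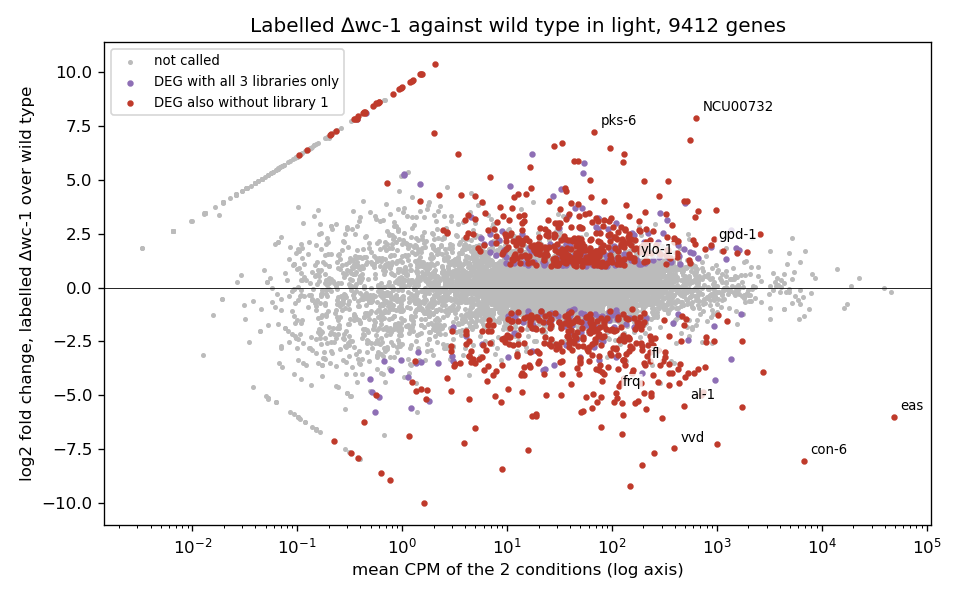
Log2 fold change of the libraries labelled ∆*wc-1* over the wild type in light against the mean CPM of both conditions (log axis) for the 9412 genes tested, with DEGs coloured by whether they were also called without library 1. *eas* and *con-6* lie at the far right among the genes that fell, and the straight diagonal edges are genes with 1 condition at 0 in all its libraries.

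Of 7 genes of the white collar complex and the clock, 2 fell, with and without library 1, and 0 rose. Over all genes tested, 4.77% fell with library 1 and 6.71% without it. *vvd* (chromosome VI, 2268533 to 2271812), which encodes the blue-light sensor that damps white collar signalling, had 938, 463 and 941 CPM in the wild type and 7.11, 3.45 and 2.90 CPM under the ∆*wc-1* label. All 3 libraries with the label lay far below every wild-type library, library 1 included, and *vvd* fell by 7.46 ± 0.87 on the log2 scale (adjusted p = 3.7e-05; -7.94 without library 1, adjusted p = 0.00023). *frq* (chromosome VII, 3131640 to 3136464), which encodes the negative arm of the circadian clock, had 196, 164 and 278 CPM in the wild type against 8.45, 6.80 and 6.29 CPM. The 3 low values spanned a narrow range, and the log2 fold change was -4.89 ± 0.50 (adjusted p = 1.8e-05; -5.02 without library 1, adjusted p = 9.5e-05). In the dark, *frq* was the sole DEG between the same strains among 9412 genes (0.0106%), at a mean of 72.6 CPM in the wild type and 9.30 CPM under the ∆*wc-1* label (log2 fold change -2.96, adjusted p = 0.022). The other genes of this list did not pass the test. *wc-2*, the partner of *wc-1*, had 71.3, 51.8 and 105 CPM in the wild type and 74.0, 151 and 131 CPM under the ∆*wc-1* label, and *frh* and *fwd-1*, a helicase and an F-box protein of the clock, had log2 fold changes of 0.13 and 0.21. *csp-1*, a repressor downstream of the white collar complex, had a log2 fold change of -1.23 (adjusted p = 0.10).

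Among 6 genes for other photoreceptors and for photolyase, 0 rose and 2 fell, beside 5.77% and 4.77% of all genes tested. *cry* (chromosome I, 7931586 to 7935778), the cryptochrome gene, had 196, 124 and 339 CPM in the wild type and 2.41, 4.76 and 11.6 CPM under the ∆*wc-1* label. The groups were more than 100 CPM apart, and *cry* fell by 5.12 ± 0.86 (adjusted p = 0.00074; -4.75 without library 1). *phr*, the photolyase gene for repair of ultraviolet damage, was at the edge of the threshold: 146, 139.6 and 109 CPM stood against 97.6, 42.6 and 43.6 CPM (log2 fold change -1.10, adjusted p = 0.0496). Library 1 was the highest of its label for *phr*, and without it the change was -1.61 (adjusted p = 0.0059). With any 1 of the other 5 light libraries left out, *phr* was not called (adjusted p from 0.056 to 0.17). The phytochrome gene *phy-1* passed the test without library 1 only (1.42, adjusted p = 0.0499; 1.03, adjusted p = 0.20 with it). The opsin gene *nop-1* had a log2 fold change of -1.72 (adjusted p = 0.15), and *phy-2* and *orp-1* lay between 0.01 and 0.14.

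In carotenoid synthesis, 3 genes of the early steps fell and that of the last step rose. *al-1*, which encodes phytoene dehydrogenase, had 1321, 643 and 896 CPM in the wild type and 7.78, 25.6 and 29.5 CPM under the ∆*wc-1* label (log2 fold change -5.50 ± 0.94, adjusted p = 0.00082; -5.11 without library 1). *al-2*, for phytoene synthase and lycopene cyclase, had 844, 425 and 444 CPM against 89.0, 60.2 and 64.6 CPM (-3.002 ± 0.42, adjusted p = 0.00021; -3.19 without library 1). *al-3*, for geranylgeranyl pyrophosphate synthase, had 491, 396 and 558 CPM against 16.8, 84.7 and 90.5 CPM (-2.91 ± 0.66, adjusted p = 0.0068; -2.46 without library 1). For these 3 genes the groups were widely separated, with library 1 the lowest for *al-1* and *al-3* and the highest of its label for *al-2*. *ylo-1*, for the aldehyde dehydrogenase that completes neurosporaxanthin, went the other way, with 99.4, 87.0 and 106 CPM in the wild type and 239, 225 and 220.3 CPM under the label. Its groups did not overlap, and it rose by 1.23 ± 0.27 (adjusted p = 0.0054). The carotenoid oxygenase gene *cao-2* did not pass the test (-1.09, adjusted p = 0.055). The counts were the same without library 1: of 5 genes, 1 rose and 3 fell. Over all genes tested, 5.77% rose and 4.77% fell with 3 libraries, and 7.73% and 6.71% without library 1. The median over the list was -2.91 with 3 libraries, beside 0.07 over all genes tested, and -2.46 without library 1, beside 0.03.

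Among 11 conidiation and blue-light-induced genes, 7 fell and 1 rose with and without library 1. Over all genes tested, 4.77% fell and 5.77% rose with it, and 6.71% and 7.73% without it. *eas* (chromosome II, 3570905 to 3572798), which encodes the hydrophobin that coats conidia, had 132521, 92964 and 60746 CPM in the wild type and 299, 1334 and 2874 CPM under the ∆*wc-1* label. It took 9.21%, 7.28% and 5.36% of all counts of the wild-type libraries and 0.0147%, 0.175% and 0.373% of those with the label. The groups did not overlap, with the lowest value in library 1, and *eas* fell by 5.99 ± 1.12 (adjusted p = 0.0019; -5.50 without library 1). *con-6* (chromosome III, 5205042 to 5205927), whose product accumulates in conidia, had 3875, 19258 and 17229.6 CPM against 27.4, 19.9 and 106 CPM. Its log2 fold change, -8.04 ± 1.35 (adjusted p = 0.00074), was the lowest of all list members (-7.74 without library 1). The wild-type libraries themselves spread widely for this gene, with library 1 the lowest of them.

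*con-10*, another gene of conidial development, had 831, 6987 and 2372 CPM in the wild type and 61.7, 66.2 and 87.9 CPM under the label (-5.56 ± 1.01, adjusted p = 0.0014; -5.46 without library 1). *con-13* had 279.8, 254 and 199.5 CPM against 1.07, 3.11 and 13.3 CPM (-5.37 ± 1.20, adjusted p = 0.0063; -4.89 without library 1). The blue-light-induced gene *bli-4* had 273, 491 and 595 CPM against 15.4, 8.53 and 22.2 CPM (-4.88 ± 0.78, adjusted p = 0.00058; the same value without library 1). In all 3 the highest value under the label was below the lowest wild-type value. *con-8* and *ccg-14*, a gene for a small secreted protein, fell by 2.46 and 1.95 (adjusted p = 0.014 and 0.020), the latter not called without wild-type library 2 or without library 2 or 3 of the label (adjusted p from 0.063 to 0.13). *ccg-9*, for trehalose synthase, rose by 1.66 ± 0.36, from 71.7, 96.4 and 125 CPM to 196, 385 and 347 CPM (adjusted p = 0.0049). *bli-3*, *ccg-1* and *ccg-6* did not pass the test, and *ccg-1*, a clock-controlled gene, had 9259.6, 14992 and 5464 CPM against 25488, 15689 and 12717 CPM. The median over the list was -2.46.

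**Figure D3:**
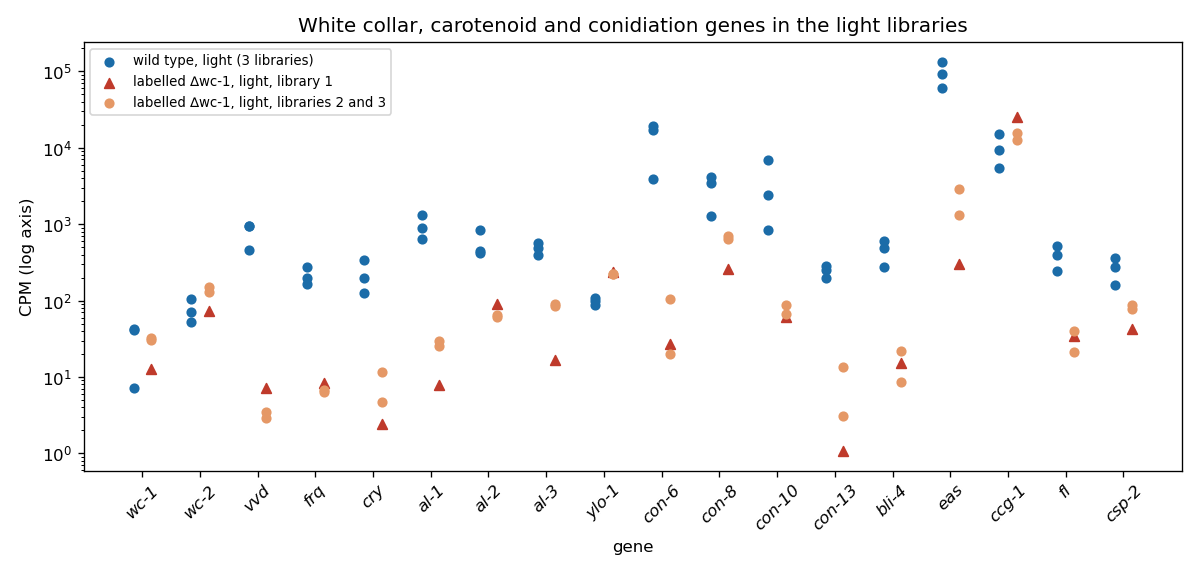
CPM (log axis) of 18 genes of the white collar complex, photoreception, carotenoid synthesis and conidiation in each of the 6 light libraries. The *vvd* points run from 463 to 941 CPM in the wild type and from 2.90 to 7.11 CPM under the ∆*wc-1* label, whereas the *wc-1* points overlap.

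Of 6 regulators of conidiation, 3 fell with 3 libraries and 2 without library 1, beside 4.77% and 6.71% of all genes tested. *fl*, the zinc cluster transcription factor needed for conidiophore formation, had 523, 241 and 393 CPM in the wild type and 34.9, 21.1 and 39.7 CPM under the ∆*wc-1* label, and fell by 3.60 ± 0.68 (adjusted p = 0.0020; -3.66 without library 1). *csp-2*, a transcription factor needed for conidia to separate, had 359, 158 and 273 CPM against 42.2, 78.1 and 87.2 CPM (-1.93 ± 0.35, adjusted p = 0.0012; -1.67 without library 1). Neither gene had overlapping groups. *acon-3*, required for the first constrictions of the conidiophore, passed the test with 3 libraries (-1.90, adjusted p = 0.041) but not without library 1 (-1.78, adjusted p = 0.075) or any other light library except wild-type library 2 (adjusted p from 0.075 to 0.13), and *acon-2*, *rco-1* and *rca-1* did not pass it. The 7 marker genes taken for conidia and conidiophores summed to 90495 to 148557 CPM in the wild type in light and to 16532 to 26171 CPM under the label, 6 of the 7 fell, and none was at 0. *eas* made 60746 to 132521 CPM of the wild-type sums, and *ccg-1*, the marker that did not fall, made 25488, 15689 and 12717 CPM of the sums under the label. RNA of whole tissue was measured, and fewer conidial cells cannot be told apart from less of these RNAs per cell. In the dark the same sums ran from 14298 to 24082 CPM over both strains.

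The dark libraries of the same strains gave the background of these genes. The dark means of the wild type were 13.9 CPM for *vvd*, 22.9 CPM for *cry*, 20.6 CPM for *al-1*, 56.1 CPM for *al-2*, 204 CPM for *con-6*, 922 CPM for *eas* and 34.8 CPM for *fl*. Those of the libraries labelled ∆*wc-1* in the dark were 5.74, 21.4, 17.6, 45.2, 141, 1117 and 45.5 CPM in the same order. Each of these 7 dark means of the wild type lay far below the lowest wild-type value in light. The test of whether the difference between the strains itself differed between light and dark, in which the light and dark comparisons share no library, called 230 genes (2.44%), 134 with a more positive and 96 with a more negative difference in light. It included *vvd* (-6.18, adjusted p = 0.0032), *con-6* (-7.51, adjusted p = 0.013), *al-1* (-5.28, adjusted p = 0.019) and *eas* (-6.27, adjusted p = 0.019). *frq*, low under the label in both conditions, was not called (-1.93, adjusted p = 0.10), nor was *al-3* (-3.16, adjusted p = 0.061). The number called depended on single libraries: it was 282 without light library 1 labelled ∆*wc-1*, 58 without dark library 2 labelled ∆*wc-1*, 130 without dark library 1 of this label, 90 and 149 without wild-type dark libraries 3 and 1, and 143 without wild-type light library 1.

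The largest falls outside the lists were in genes of unknown or little known role, several of which were at 0 in library 1. NCU17113 (chromosome VI, 2278124 to 2279737), with no known role in the annotation used here, had 185, 157 and 547 CPM in the wild type and 0, 0.734 and 0.608 CPM under the ∆*wc-1* label (-9.20 ± 1.20, adjusted p = 0.00012). NCU08770, a hypothetical protein gene, had 111, 659.7 and 388 CPM against 0, 0.674 and 2.98 CPM (-8.23, adjusted p = 0.00074). NCU09859, annotated as a metalloprotease, had 647, 569 and 304 CPM against 0, 0.991 and 6.29 CPM (-7.66, adjusted p = 0.012; 0.054 without library 2 of the label). Library 1 was at 0 for all 3, where 3 counts, the floor chosen here, correspond to 0.201 CPM. The log2 fold changes were -7.54 for NCU16408 and -6.46 for NCU05619, also of unknown role, -7.28 for NCU14029, -6.81 for the cholinesterase gene NCU00292 and -6.03 for the hypothetical protein gene NCU09494, with adjusted p from 0.00068 to 0.0059. NCU00583 fell by 8.42 from 13.4, 17.8 and 22.3 CPM to 0, 0 and 0.118 CPM (adjusted p = 0.0057), but its annotated span overlaps that of *cry*. Each of these genes was also called without library 1.

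One of the largest rises was that of NCU00732 (chromosome I, 7386748 to 7388890), annotated as a trichothecene hydroxylase of the cytochrome P450 type. It had 4.83, 7.72 and 3.62 CPM in the wild type and 1163, 1289 and 1314 CPM under the label. The values under the label lay close together, and the gene rose by 7.86 ± 1.30 (adjusted p = 0.00070; 7.92 without library 1). In the dark it varied instead within the wild type, with 124, 15.8 and 2616 CPM in libraries 1, 2 and 3, and 47.6, 28.9 and 13.2 CPM in those labelled ∆*wc-1*. NCU09798, annotated as an aryl-alcohol dehydrogenase, had 0.644, 1.06 and 0.191 CPM against 79.4, 50.4 and 67.3 CPM (6.71 ± 1.10, adjusted p = 0.00066; 6.55 without library 1). NCU07053, an aldehyde dehydrogenase gene, rose by 5.87 (adjusted p = 0.013) and NCU05870, a hypothetical protein gene, by 5.59 (adjusted p = 0.0024), both also without library 1. NCU03600, annotated as a GTP-binding protein, was abundant in both conditions, at 953, 839 and 573 CPM against 5882, 3574 and 3614 CPM, and rose by 2.47 ± 0.57 (adjusted p = 0.0081).

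For 3 of the largest rises, library 1 set most of the mean CPM under the label, and the log2 fold change was smaller without it. NCU10865 had 625 CPM in library 1 and 72.6 and 58.5 CPM in libraries 2 and 3, against 5.64, 4.09 and 3.43 CPM in the wild type, and the log2 fold change was 5.84 with library 1 and 3.90 without it (adjusted p = 0.024). NCU07088 stood at 281, 20.2 and 17.5 CPM against 1.45, 3.48 and 0.889 CPM, with 5.77 (adjusted p = 0.017) and 3.28 (adjusted p = 0.089). NCU09976 stood at 93.1, 5.35 and 4.66 CPM against 0.805, 0.606 and 0 CPM, with 6.20 (adjusted p = 0.0085) and 3.42 (adjusted p = 0.059). For NCU07088 and NCU09976 the call rested on library 1, and for NCU07088 also on wild-type libraries 1 and 3 (adjusted p from 0.065 to 0.089), although libraries 2 and 3 were above all wild-type libraries for both.

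Some of the DEGs lay side by side on a chromosome. The 543 genes that rose formed 62 pairs of neighbours, which held 19.9% of them, and the 449 that fell formed 63 pairs, which held 23.8%. Without library 1 there were 173 such pairs, against 125 with it. How many pairs would arise with 5.77% of all genes tested called higher and 4.77% lower was not worked out. The counts alone thus do not show that DEGs lie together. Some pairs have overlapping annotated spans, such as *cys-3* with NCU03535 and NCU03362 with NCU03361. Runs of at least 4 neighbouring DEGs of 1 direction numbered 6 and held 34 genes, of which 33 were called in the same direction without library 1 (all but NCU00850, -3.27, adjusted p = 0.060). They were looked for after the values were seen. The run with the most members was the only one that rose: 8 genes on chromosome I from *fbm-1* to *pks-6* (8677529 to 8699834). *pks-6*, which encodes a polyketide synthase, had 0, 1.29 and 1.40 CPM in the wild type and 182, 82.3 and 143 CPM under the ∆*wc-1* label (7.22 ± 1.54, adjusted p = 0.0048; 6.95 without library 1). *fbm-1*, annotated as a gene of fruiting body maturation, had 16.9, 10.6 and 10.7 CPM against 537, 300 and 339 CPM (4.94, adjusted p = 0.0011). No member had overlapping groups, which was also so for 478 of the 543 genes that rose.

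The members between them were annotated as short-chain dehydrogenases (NCU02920 and NCU02922), cupin domain proteins (NCU02919 and NCU02921), an epoxide hydrolase (NCU02924) and a protein of unknown function (NCU02923). Their log2 fold changes were 4.22 for NCU02920, 5.89 for NCU02921, 6.21 for NCU02923, 6.47 for NCU02922, 6.55 for NCU02924 and 6.85 for NCU02919, with adjusted p from 0.00074 to 0.014. NCU02919 was the least even of them, with 2828 CPM in library 1 and 189.9 and 312 CPM in libraries 2 and 3. All 8 were called without library 1 as well as with library 1 alone. NCU02917, the gene next to *pks-6* on the other side, stood at 10.7, 8.14 and 11.7 CPM against 10.9, 4.06 and 5.998 CPM and was not called (-0.55, adjusted p = 0.48). In the dark, *pks-6* had 154, 36.6 and 5.38 CPM in the wild type and 88.5, 226 and 32.6 CPM under the label, and the groups overlapped.

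**Figure D4:**
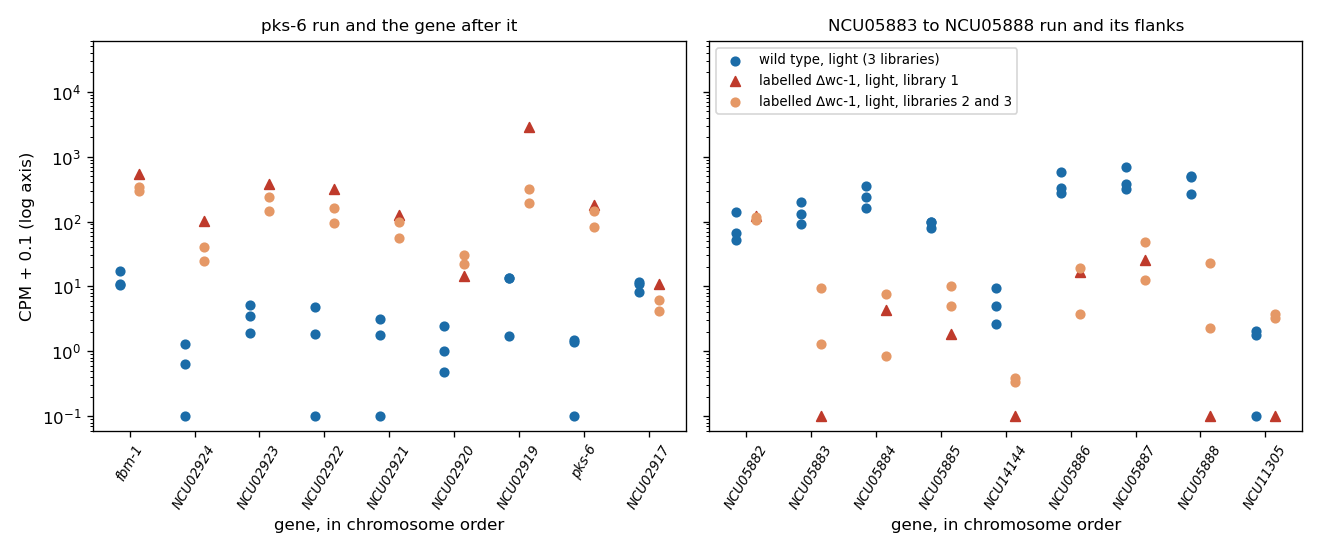
CPM plus 0.1 (log axis) in each of the 6 light libraries for the run of 8 neighbouring genes that rose, from *fbm-1* to *pks-6*, with the gene after it (left), and for the run of 7 that fell, from NCU05883 to NCU05888, with the gene on either side (right). Points at the bottom are libraries at 0 CPM, and the flanking genes NCU02917, NCU05882 and NCU11305 have overlapping groups.

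The 5 other runs fell. On chromosome VII, 7 neighbours from NCU05883 to NCU05888 (4157036 to 4172944) included monooxygenases, a transporter and an oxidoreductase, with log2 fold changes from -5.90 for NCU05884 to -4.02 for NCU05885. NCU05884, the transporter, had 162, 347 and 242 CPM in the wild type and 4.29, 0.753 and 7.53 CPM under the label (adjusted p = 0.014). The annotated spans of NCU05885 and NCU14144 overlap, as do those of NCU05883 and the flanking gene NCU05882, which was not called (0.42, adjusted p = 0.64). On chromosome I, *al-2* and *cry* lay in a run of 5 with *ncw-6*, a cell wall protein gene, NCU00584 and NCU00583 (7917286 to 7935778). NCU00584, a hypothetical protein gene, had 2504, 1211 and 607 CPM against 261, 31.2 and 40.8 CPM (-3.70, adjusted p = 0.0090). A run of 5 on chromosome IV (513043 to 546743) held the polyketide synthase gene *pks-3* and the transcription factor gene *ada-6*. *pks-3* had 303, 167 and 226 CPM against 19.4, 14.8 and 32.7 CPM (-3.38, adjusted p = 0.0052), and *ada-6* had 102, 96.5 and 149 CPM against 14.5, 25.8 and 25.5 CPM (-2.40, adjusted p = 0.00074). The remaining runs held 5 genes on chromosome I (NCU00848 to NCU00852, of which NCU00849 and NCU00850 overlap) and 4 on chromosome V (NCU01057 to NCU01060). Shorter pairs included *con-6* with NCU08770 and *con-10* with *con-13*.

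Over the 19 genes of 3 mitogen-activated protein kinase (MAPK) pathways, for cell wall integrity, pheromone response and osmosensing, 3 rose and 1 fell, beside 5.77% and 4.77% of all genes tested. Without library 1, 2 rose and 0 fell, beside 7.73% and 6.71%. In the cell wall integrity pathway, the kinase genes *mek-1* and *mak-1* and the transcription factor gene *adv-1* rose with 3 libraries, and 0 genes of 5 were called without library 1. *mak-1*, the MAPK of this pathway, had 173, 120.4 and 92.4 CPM in the wild type and 362, 252 and 232 CPM under the label, with a log2 fold change of 1.13 ± 0.35 (adjusted p = 0.039) with library 1 and 0.91 (adjusted p = 0.087) without it. *mek-1*, the kinase above it, had 321, 228 and 118 CPM against 836, 373 and 327 CPM (1.21, adjusted p = 0.044; 0.66, adjusted p = 0.19). The groups did not overlap in either gene, and library 1 had the highest value in both. Each of the 3 calls was also lost without wild-type library 2 or 3 (adjusted p from 0.062 to 0.15), those of *mak-1* and *adv-1* without library 2 of the label (adjusted p = 0.060 for both) and that of *adv-1* without wild-type library 1 (adjusted p = 0.10).

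In the pheromone response pathway the calls differed with library 1 as well. *mak-2*, its MAPK, had 212, 234 and 271 CPM in the wild type and 297, 685 and 556 CPM under the ∆*wc-1* label, with a log2 fold change of 1.10 (adjusted p = 0.10) with 3 libraries and 1.38 (adjusted p = 0.038) without library 1. *pp-1*, the transcription factor at its end, had 0.76 (adjusted p = 0.17) and 1.05 (adjusted p = 0.040). Library 1 lay within or near the wild-type range for both. *ccg-4*, which encodes a pheromone precursor of *mat A* strains and is also a clock-controlled gene, had 419.5, 2034 and 2985 CPM against 55.2, 47.1 and 178 CPM, and passed the test with 3 libraries only (-4.28, adjusted p = 0.044; -4.01, adjusted p = 0.088 without library 1). The call was lost with any 1 light library left out except wild-type library 1 (adjusted p from 0.056 to 0.13). Of the 9 genes of this list, 0 rose and 1 fell with 3 libraries, beside 5.77% and 4.77% of all genes tested. Without library 1, 2 rose and 0 fell, beside 7.73% and 6.71%. The pheromone receptor gene *pre-1* and the G protein genes *gna-1*, *gnb-1* and *gng-1* did not pass the test in either fit.

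Of 12 cell fusion genes, 1 rose and 0 fell with 3 libraries: *ham-7*, for a cell surface sensor, had 186, 199 and 130.0 CPM against 658, 439 and 363 CPM (1.503 ± 0.39, adjusted p = 0.015; 1.22, adjusted p = 0.041 without library 1; 1.34, adjusted p = 0.062 without wild-type library 3). Without library 1, 4 rose, *ham-7* with *so*, *ham-6* and *ham-8* at 1.18 to 2.17, and *ham-3* fell by 1.89 (adjusted p = 0.018). Over all genes tested, 5.77% rose and 4.77% fell with 3 libraries, and 7.73% and 6.71% without library 1. *ham-3*, for a striatin of the STRIPAK complex, had 242, 103 and 151 CPM in the wild type, 296 CPM in library 1 and 39.7 and 49.6 CPM in libraries 2 and 3, so that library 1 was above every wild-type library. The 5 osmosensing genes and the 4 velvet genes were not called in either fit. *ve-1* had 238, 176 and 286 CPM in the wild type and 61.3, 286 and 283 CPM under the label (-0.15, adjusted p = 0.90). Its level in library 1 alone was below all others.

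**Figure D5:**
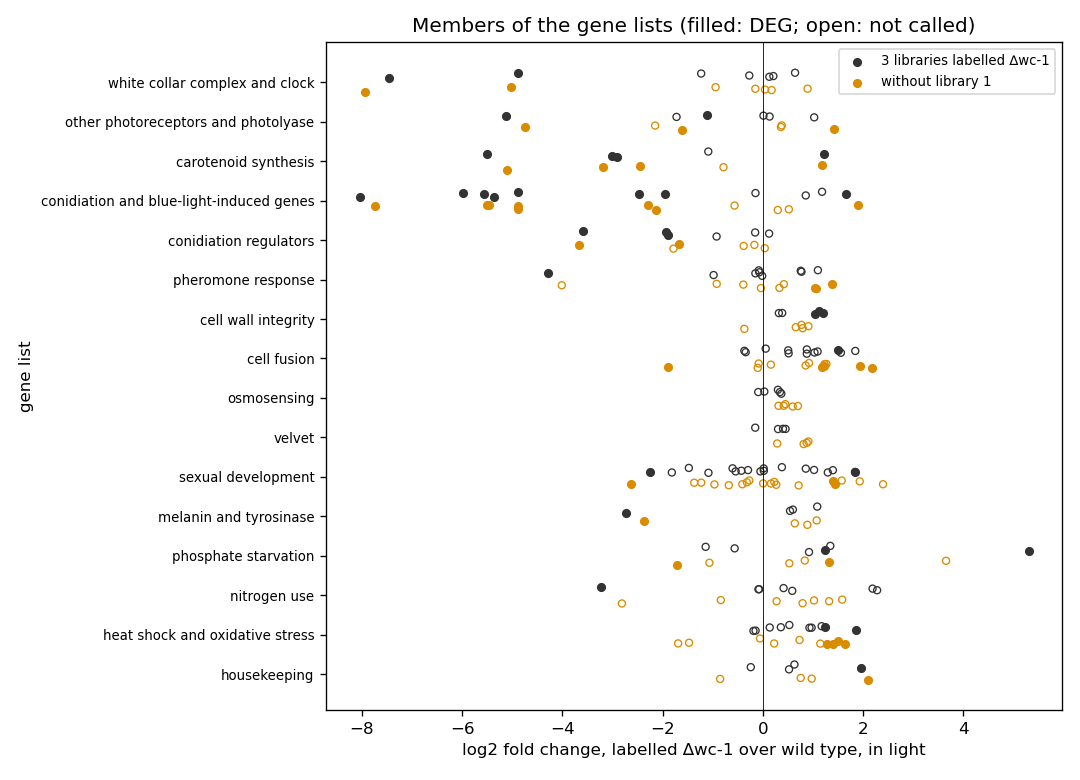
Log2 fold change of the members of 16 gene lists in light, with all 3 libraries labelled ∆*wc-1* (dark points) and without library 1 (orange points); filled points are DEGs and open points were not called. The lists for carotenoid synthesis and for conidiation and blue-light-induced genes reach from -8.04 to 1.66 with 3 libraries, and the 9 genes of the osmosensing and velvet lists lie between -0.15 and 0.46.

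Among 18 genes of sexual development, 1 rose and 1 fell, beside 10.5% of all genes called. *nox-2*, for an NADPH oxidase, had 37.3, 66.5 and 37.8 CPM in the wild type and 258, 138 and 112 CPM under the label, and rose by 1.84 ± 0.44 (adjusted p = 0.0097). *asd-3*, a gene of ascus development, had 145, 119.9 and 153 CPM against 42.9, 18.6 and 26.5 CPM and fell by 2.25 ± 0.57 (adjusted p = 0.014). Both were also called without library 1, and *asd-3* was not called without library 2 (adjusted p = 0.066). Without library 1, *nox-1*, for the NADPH oxidase needed for female fertility, was called too (1.45, adjusted p = 0.015; 1.02, adjusted p = 0.14 with it). The share of all genes called in the fit without library 1 was 14.4%. The mating type gene *matA-1* had a log2 fold change of -1.08 (adjusted p = 0.14), and *fsd-1* and *asm-1*, transcription factor genes of female development, had 1.30 (adjusted p = 0.18) and -0.29 (adjusted p = 0.80). *per-1*, the polyketide synthase gene of perithecial melanin, fell by 2.74 ± 0.68, from 77.8, 29.3 and 57.5 CPM to 3.35, 8.41 and 12.7 CPM (adjusted p = 0.013; -2.37, adjusted p = 0.037 without library 1). The other 3 genes for melanin and tyrosinase did not pass the test.

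The 4 markers of protoperithecia summed to 139, 110.2 and 258 CPM in the wild type and 133, 355 and 294 CPM under the label, and 1 of them, *per-1*, fell. The 4 markers of perithecia and asci summed to 3414, 9324 and 3381 CPM and 428, 1378 and 3968 CPM. Most of this came from *poi-2*, and *app* was at 0 in library 1. Their part in the other results was not tested.

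Of 4 reference genes 1 rose, and of 10 genes for heat shock and oxidative stress 2 rose, beside 5.77% of all genes tested. *gpd-1*, for glyceraldehyde-3-phosphate dehydrogenase, often used as a reference gene, had 392.2, 297 and 401 CPM in the wild type and 1123, 1500.5 and 1612 CPM under the label (1.96 ± 0.44, adjusted p = 0.0062; 2.10 without library 1). The other 3 reference genes, *act*, *tub-2* and *tef-1*, did not pass the test, with log2 fold changes of 0.53, -0.24 and 0.63. *cat-3*, for a catalase, had 98.9, 59.8 and 61.8 CPM against 339.6, 243 and 216 CPM (1.86 ± 0.44, adjusted p = 0.0089), and *sod-1*, for copper-zinc superoxide dismutase, had 113, 158 and 118 CPM against 231, 364 and 323 CPM (1.24 ± 0.34, adjusted p = 0.023). *sod-1* was not called with library 2 or 3 of the label or wild-type library 1 or 3 left out (adjusted p from 0.052 to 0.085). The dark means of *cat-3*, 89.6 CPM in the wild type and 77.3 CPM under the label, were below every light value with the label. Without library 1, 4 of these 10 genes rose, when the chaperone genes *hsp70* (1.28, adjusted p = 0.0495) and *hsp80* (1.501, adjusted p = 0.018) joined. The share of all genes tested that rose in this fit was 7.73%. *cat-1* and *sod-2*, a conidial catalase and a mitochondrial superoxide dismutase, were split by library: *sod-2* had 238, 212 and 166 CPM in the wild type, 551 CPM in library 1 and 57.4 and 69.9 CPM in libraries 2 and 3.

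In phosphate use, *nuc-2*, for a regulator of the response to phosphate starvation, had 41.2, 31.0 and 44.6 CPM in the wild type and 81.7, 97.3 and 98.4 CPM under the label. It rose by 1.25 ± 0.35 (adjusted p = 0.025; 1.33 without library 1) and was not called without wild-type library 1 or 2 or library 2 or 3 of the label (adjusted p from 0.057 to 0.096). The acid phosphatase gene *pho-3* had 4.99, 2.20 and 0.699 CPM in the wild type and 245, 34.2 and 32.0 CPM under the label, with 5.31 (adjusted p = 0.015) and, without library 1, 3.66 (adjusted p = 0.054). It was not called without wild-type library 2 or 3 either (adjusted p = 0.059 and 0.058). Of the 6 genes, 2 rose and 0 fell with 3 libraries, beside 5.77% and 4.77% of all genes tested. Without library 1, 1 rose and 1 fell, beside 7.73% and 6.71%. In nitrogen use, *mtr*, the neutral amino acid permease gene, was called with 3 libraries only (-3.24, adjusted p = 0.020; -2.81, adjusted p = 0.052 without library 1, and 0.081 and 0.082 without library 2 of the label and wild-type library 3), and the nitrite reductase gene *nit-6*, at 334 CPM in library 1 and 86.4 and 87.7 CPM in libraries 2 and 3 against 51.5, 28.4 and 24.5 CPM, was not called (2.28, adjusted p = 0.061).

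Over all 119 genes of the 16 lists, 12 rose and 21 fell with 3 libraries, beside 5.77% and 4.77% of all genes tested. Without library 1, 17 rose and 20 fell, beside 7.73% and 6.71%, and 26 were called in both fits. The median log2 fold change over these genes was 0.14, beside 0.07 over all genes tested. Lists and members were chosen with earlier results of these data known, so this is not an independent comparison.

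The transcripts with the largest amounts in library 1 did not follow the strain. The 10 most abundant were 8 genes annotated for ribosomal proteins, a gene annotated as ribosomal RNA (NCU17319) and *ccg-1*. NCU00706, annotated as ribosomal protein L44, had 40769, 24951 and 80119 CPM in the wild type, 125400 CPM in library 1, and 1341 and 1538 CPM in libraries 2 and 3. None of these 10 genes was called with 3 libraries or without library 1, and NCU00294, annotated as ribosomal protein L10a, was called with library 1 alone (3.14, adjusted p = 0.0029). For 9 of them, all but *ccg-1*, library 1 was above both other libraries with its label by a wide margin. The same split appeared in NCU15719 and NCU05395, annotated as ribosomal RNA and as a hypothetical protein, which were called without library 1 only (-2.82 and -2.34, adjusted p = 0.048 and 0.021). The cell wall protein gene *ncw-3* had 2913, 4709 and 8004 CPM against 681, 118 and 225 CPM and fell by 3.93 (adjusted p = 0.048; 0.036 without library 1). It was not called with any 1 of the other 5 light libraries left out (adjusted p from 0.062 to 0.14).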

How the data were processed

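PolyA RNA was sequenced from 24 libraries of 4 strains in light or dark (3 libraries per condition). Per the labels and methods, the authors checked the reads with FastQC, trimmed them with fastp, aligned them with STAR 2.7 to the OR74A (NC12) genome and counted them per gene with featureCounts of the Subread package. The deposited values are raw counts for 10561 genes and were not normalized. Names and coordinates came from the RefSeq table of assembly NC12, which matched all 10561 IDs, and other roles from the annotation given with the study.

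Counts were scaled by TMM and tested in edgeR 4.0.16 (R 4.3.3) with the quasi-likelihood test on all 24 libraries, which leaves 16 residual degrees of freedom, after filterByExpr (9412 genes kept). P-values were adjusted by Benjamini and Hochberg over all genes tested. SE is the fold change divided by the square root of F. Totals of 30246878 to 42697941 counts limit precision for low genes. In library 1 labelled ∆*wc-1*, 3 counts equal 0.201 CPM. Alternatives used DESeq2 1.42.0, limma 3.58.1, other scalings, filters and sample choices, covariates and a replicate block. The main edgeR fit, limma-voom and DESeq2 on all libraries were also run on simulated counts with added changes. Those counts had a spread per gene shared by all libraries, and so did not cover the uneven spread or library 1 of these data. The other fits were not run on simulated counts. Members and lists were chosen with earlier results of these data known. Named genes were all list members, the 12 largest rises and falls with separate groups and a mean of at least 10 CPM in the higher one (8 each without library 1), the 8 largest differences in CPM, the 6 largest differences between the effects in light and dark, and the 10 most abundant genes of library 1. The members of the runs of neighbours were chosen after their values were seen.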

Additional observations from a re-analysis of the deposited data

Results flagged for a closer look

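For 28 of the 157 named genes tested, the difference between the strains itself differed between light and dark, beside 2.44% of all genes tested. The test was edgeR's quasi-likelihood test of the interaction, at an adjusted p below 0.05. Some genes were named for a large interaction or a large change in light, so their share is raised by the choice itself. Each value below is the log2 fold change (labelled ∆*wc-1* over wild type) in light minus that in the dark. Among genes of light response, carotenoids and conidiation these were -6.18 for *vvd*, -5.02 for *cry*, -5.28 for *al-1*, -2.69 for *al-2*, -7.51 for *con-6*, -4.72 for *con-10*, -5.93 for *con-13*, -4.43 for *bli-4*, -6.27 for *eas*, -3.98 for *fl* and -2.13 for *csp-2*. All 11 were lower under the label in light. Among genes with little known of their role, the values were -7.42 for NCU17113, -6.98 for NCU08770, -9.06 for NCU09859, -7.73 for NCU16408, -6.83 for NCU14029 and -5.49 for NCU05619.

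Positive values were found for *nox-2* (2.31), *gpd-1* (2.28), NCU02922 (5.73), NCU02927 (5.54), NCU05870 (6.91), NCU03600 (3.46), NCU10865 (7.21), NCU09798 (8.58), NCU00732 (12.80), NCU05126 (9.39) and NCU09506 (12.70). For several of them, single dark libraries of the wild type stood high. NCU05126 had 130, 18.5 and 1276 CPM in the wild-type dark libraries and 12.8, 4.01 and 4.59 CPM in those labelled ∆*wc-1*, and was not called in light alone (3.33, adjusted p = 0.089). NCU09798 had 40.3, 13.5 and 111.5 CPM against 22.8, 15.5 and 6.97 CPM. NCU09506 was at 0 in all wild-type light libraries and had 0, 1.31 and 2.00 CPM under the label in light, where it was not called (adjusted p = 0.055; 0.028 without library 1).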

How the results depend on the processing

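Of 58 named genes called, 19 were called under all alternatives run and 41 with each of the 6 light libraries left out. Counts of DEGs in light (total, higher, lower; 992, 543 and 449 as reported) moved by over 1.5 times with limma-voom (2281, 1060, 1221), with the 10-gene share (2087, 940, 1147) or the share of even counts (1820, lower 1067) as covariate, with library 1 alone (2752, 1014, 1738) and in edgeR on the 6 light libraries (138, 56, 82). DESeq2 gave 682 lower on all libraries and 360 higher on the compared ones. Genes that rose made up 54.7% of calls as reported, 46.5% with limma-voom, 40.6% in edgeR on the light libraries, and 45.04% and 41.4% with the covariates. The median log2 fold change over all genes was 0.07, 0.05 with RLE scaling, 0.22 with total counts, 0.14 with limma-voom and -0.14 with either covariate. With 1 light library left out, totals ran from 720 to 1373, higher calls from 351 to 735 and lower calls from 253 to 638.

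Interaction calls (230, 134 and 96) became 1512, 754 and 758 with limma-voom, 557, 333 and 224 with DESeq2 on all libraries, 702, 432 and 270 with DESeq2 on the compared ones, 889, 505 and 384 with the 10-gene share, 867, 457 and 410 with even counts, and 2157, 722 and 1435 with library 1 alone, while edgeR on the compared libraries gave 60 lower. With 1 library left out they ran from 58 to 282, 35 to 159 and 23 to 123. Calls in the gene lists (33, 12 and 21) became 52 with 26 higher in limma-voom and 11, 0 and 11 in edgeR on the light libraries, and ran from 23 to 37, 8 to 17 and 15 to 20 with 1 library left out.

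The direction reversed for NCU02775 (-1.07) and NCU00706 (1.11) with the 10-gene share as covariate, for *lae-1* (-2.54) with library 1 alone, and in limma-voom for *sod-2* (-1.67), NCU00979 (-2.74), NCU06432 (-3.78), NCU03635 (-2.84) and NCU00618 (-2.27). The 10-gene share as covariate instead called *sod-2* (1.07), NCU00979 (1.41), NCU06432 (1.21), NCU03635 (1.31) and NCU00618 (1.44) higher. In limma-voom NCU00706 was called lower (-4.69), so these alternatives called the same genes in opposite directions. None of the 8 reversed genes was called as reported, and the cause was not tested. Genes not called under either setting changed sign 220 times, in 68 genes. Same-numbered libraries of both strains in light did not deviate together throughout (correlations of 0.35, -0.19 and 0.45), so the numbers were not read as pairs, and 884 DEGs (470 higher, 414 lower), 177 interaction calls (102 and 75) and 29 list calls (11 and 18) were found with the replicate number as a block. Filters and RLE scaling left each count within 1.5 times. Depth limits genes near 3 counts per library.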

Other observations

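Glycoside hydrolases, which cut or remodel cell wall and storage polysaccharides, were not among the lists described above. Of 79 genes with a *gh* symbol 78 were tested, 7 rose and 10 fell (5.77% and 4.77% of all genes did), with a median log2 fold change of 0.22 beside 0.07 over all genes. Without library 1, 9 rose and 10 fell (7.73% and 6.71% of all genes), and 13 were called in both fits. *gh10-4* had 122, 123 and 82.5 CPM in the wild type and 0.0670, 2.24 and 7.19 CPM under the label (-5.07, adjusted p = 0.0023). *gh31-1* had 252, 169 and 247 CPM against 30.7, 42.98 and 47.3 CPM (-2.47, adjusted p = 0.0014), and *gh3-3* fell by 3.54 (adjusted p = 0.0042). *gh16-1* had 74.3, 55.1 and 51.6 CPM against 292, 225 and 309.6 CPM (2.19, adjusted p = 0.0044), and *gh3-2* rose by 1.36 (adjusted p = 0.0025). The groups did not overlap for any of these 5 genes, which were picked among the DEGs. Groups without overlap were found in 28 of the 78 genes, beside 22.9% of all genes tested. Family names come from the annotation, and the enzymes' substrates are not given there.

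The 7 genes for cytosolic ribosomal proteins with a *crp* symbol were not called in light with or without library 1, with a median log2 fold change of 0.01 with it and -0.82 without it. Their part in the split of library 1 from libraries 2 and 3 was not tested.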
